A study of Mus musculus with 8 samples.

Results

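The probes for the variable, joining and constant segments of the T cell receptor genes were followed in CD4+ T cells isolated from mice with and without a tumour. They comprised 121 of the 56587 probes with usable spots on the 8 arrays. A probe was counted as a receptor probe if the array's description named a T cell receptor together with a variable, joining or constant segment, or if its gene name began with Trav, Trbv, Trgv, Trdv, Trac or Trbc. The alpha chain had 72 variable probes and 1 constant probe, the beta chain 26 variable, 1 joining and 4 constant probes, the gamma chain 6 variable and 4 constant probes, and the delta chain 6 variable probes and 1 constant probe. The 121 probes carried 106 different segment names, and 119 probes had a name that RefSeq (GRCm38.p6) also lists.

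The series asked how interleukin-6 (IL-6) bears on T helper priming in mice with tumours, and each sample was hybridised to 1 one-colour array. All mice were C57BL/6, all were given CD4+ T cells whose transgenic receptor recognises ovalbumin (OVA), and all were then immunised with dendritic cells that carried the OVA peptide. The hosts were tumour-free or had been inoculated with MCA205 fibrosarcoma cells that make OVA, and a control antibody (control Ab) or one that blocks the receptor of IL-6 (anti-IL-6R Ab) accompanied the dendritic cells. CD4+ T cells were taken 4 days after immunisation, with 2 arrays per group: tumour-free with control Ab (replicates 1 and 2), tumour-bearing with control Ab (3 and 4), then, with anti-IL-6R Ab, tumour-free (5 and 6) and tumour-bearing (7 and 8). The labels speak of 2 independent experiments per condition without saying which arrays belong to the same experiment. They do not name the transgenic line, and the number of transferred cells, the number of mice per sample, the age of the mice and whether host CD4+ T cells were removed before RNA extraction are likewise unstated in the labels.

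An alpha-beta T cell reads antigen through an alpha and a beta chain, each built by joining 1 of many variable segments to a joining segment and, by splicing, to a constant region. In a diverse T cell population the many variable segments are each used by a fraction of the cells, whereas a rearranged receptor transgene gives all of its cells the same pair of variable segments. OT-II, a widely used line with an OVA-specific receptor on this strain, pairs an alpha chain of the Trav14 family (also called Valpha2) with a beta chain of the Trbv12 family (Vbeta5). Gamma and delta segments belong to gamma-delta T cells, although some of them are transcribed in other T cells without a productive receptor.

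The Trav14 probes are shown first because 5 of them had the largest ranges over the arrays among the receptor probes well above background on every array. Positions are in mouse build mm9, which the file headers name, and each probe has 60 bases. In the lines of Trav14-1 A_66_P106189 and Trav14-2, and in those of Trav14-1 A_55_P1959384 and Trav14n-3, capitals mark the bases at which the paired probes differ where they overlap. The other lines have nothing marked.
Trav14-1 probe A_66_P106189, chr14:54174142-54174201, plus strand: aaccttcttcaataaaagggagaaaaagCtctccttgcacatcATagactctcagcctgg
Trav14-2 probe A_55_P2021606, chr14:54260816-54260875, plus strand: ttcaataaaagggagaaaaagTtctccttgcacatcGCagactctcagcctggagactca
Trav14-1 probe A_55_P1959384, chr14:54173723-54173782, plus strand: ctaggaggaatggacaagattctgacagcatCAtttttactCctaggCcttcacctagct
Trav14n-3 probe A_66_P111053, chr14:53989773-53989970, plus strand: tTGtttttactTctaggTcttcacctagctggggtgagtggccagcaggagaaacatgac
Trav14d-3-dv8 probe A_55_P2021603, chr14:53698499-53698558, plus strand: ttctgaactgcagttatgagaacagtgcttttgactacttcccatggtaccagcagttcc
Trav14n-1 probe A_66_P111163, chr14:53476381-53476440, plus strand: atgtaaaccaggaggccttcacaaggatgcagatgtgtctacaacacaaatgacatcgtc
Trav14-1 A_66_P106189 and Trav14-2 A_55_P2021606 overlapped by 53 bases with 3 differences, and Trav14-1 A_55_P1959384 and Trav14n-3 A_66_P111053 by 30 bases with 4 differences. Such neighbours can bind the same transcript, so which copy of the Trav14 family gave the signal cannot be told. The Trav14n-3 probe spans 198 bases of the genome and therefore reads across a splice junction. Outside the receptor probes, no probe of the array shared a run of 20 bases with these 6.

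The 4 probes below are the counterparts of the Trav14 set: Trbv12-2 and Trbv12-1 for the beta family that OT-II uses, Trac for the constant region of every alpha chain, and Trav11d, the segment that passed the test. None of the 4 shared a run of 20 bases with a probe outside the receptor set, and no letters are marked.
Trbv12-2 probe A_55_P2087292, chr6:41069137-41069196, plus strand: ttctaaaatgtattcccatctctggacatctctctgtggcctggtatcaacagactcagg
Trbv12-1 probe A_66_P106173, chr6:41063907-41063966, plus strand: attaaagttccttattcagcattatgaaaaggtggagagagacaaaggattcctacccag
Trac probe A_52_P112591, chr14:54841802-54842701, plus strand: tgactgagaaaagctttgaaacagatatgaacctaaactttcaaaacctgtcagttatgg
Trav11d probe A_55_P2057644, chr14:54139419-54139478, plus strand: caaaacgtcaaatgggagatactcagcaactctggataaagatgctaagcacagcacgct
The Trac probe spans 900 bases of the genome, so it too reads across a splice junction.

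Values are log2 signals minus the 75th percentile of the array, and they compare arrays for 1 probe rather than probes with each other. Of the 121 receptor probes, 100 were well above background on all 8 arrays by the scanner software's own call, 10 on some arrays and 11 on none; 106 were so on both arrays of at least 1 group and entered the tests. No probe was saturated on any array, and between 53.1% and 59.8% of all probes lay well above background. Of the markers of the labelled cell type, Cd3d, Cd3e, Cd3g and Cd4, the genes of the CD3 chains and of the CD4 coreceptor, lay at 6.95 to 7.56, 6.19 to 6.47, 5.57 to 5.97 and 5.15 to 5.65. Probes of other cells also gave signal, with Siglech, a gene of plasmacytoid dendritic cells, at 7.50 to 7.83 and Lyz2, a gene of myeloid cells, at 6.35 to 7.25, so these levels do not measure how pure the samples were. Control Ab arrays occupied 1 column of the slide and anti-IL-6R Ab arrays the other, with tumour-free hosts in rows 1 and 2 and tumour-bearing hosts in rows 3 and 4, so that the place on the slide cannot be told apart from the groups.

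Trav14 signal differed several-fold between arrays, also between arrays of the same group. The Trav14-1 probe A_66_P106189 read 5.58 and 5.61 in tumour-free hosts with control Ab, 4.75 and 3.59 in tumour-bearing hosts with control Ab, 5.69 and 4.36 in tumour-free hosts with anti-IL-6R Ab, and 3.39 and 3.43 in tumour-bearing hosts with anti-IL-6R Ab. Replicates 1, 2 and 5 were high, replicates 3 and 6 lay between, and replicates 4, 7 and 8 were low. The other Trav14-1 probe read 4.57, 4.61, 3.78, 2.62, 4.75, 3.44, 2.54 and 2.50 in replicates 1 to 8. The Trav14-2 probe read 5.15, 5.16, 4.30, 3.04, 5.27, 3.93, 2.98 and 2.96. Both kept the order of high and low arrays seen for the first probe.

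The same order held in other copies of the family. Trav14d-3-dv8 A_55_P2021603 read 3.92, 3.93, 3.10, 2.12, 4.06, 2.76, 1.97 and 1.94 in replicates 1 to 8. Trav14n-3 read 2.94, 3.03, 2.19, 1.25, 3.15, 1.89, 1.17 and 1.15. Relative to replicate 1, these 5 probes differed by 0.02 to 0.09 in replicate 2 and by 0.11 to 0.21 in replicate 5. They differed by -0.84 to -0.75 in replicate 3, by -1.23 to -1.05 in replicate 6, by -2.11 to -1.69 in replicate 4, by -2.20 to -1.78 in replicate 7 and by -2.19 to -1.79 in replicate 8. Replicate 7 was thus 3.42-fold to 4.58-fold below replicate 1, depending on the probe.

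A pair of Trav14 probes did not follow. Trav14n-1 A_66_P111163, printed above, read 0.78, 0.60, 0.36, 0.85, 0.88, 0.97, 0.82 and 0.67 in replicates 1 to 8, a range of 0.60 over all arrays. A further Trav14d-3-dv8 probe, A_55_P2246865 at chr14:53702321-53702380, was well above background on 2 arrays and did not enter the tests.

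**Figure D1:**
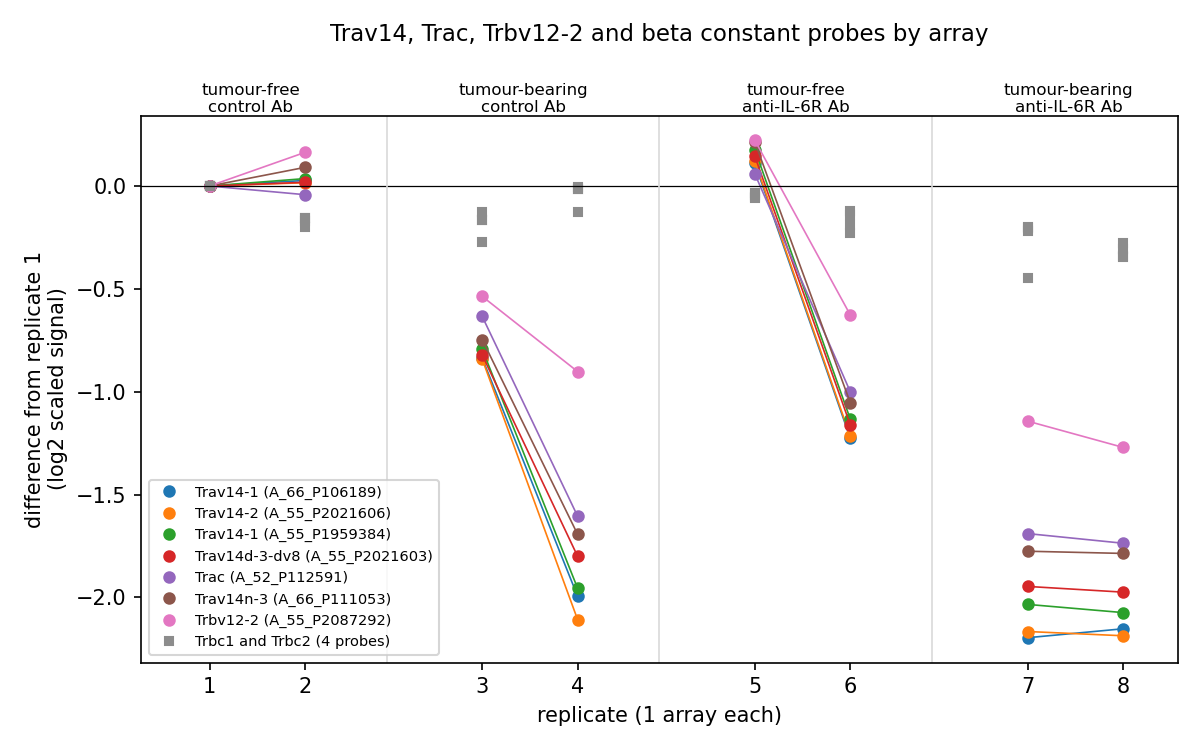
Difference from replicate 1 in log2 scaled signal (vertical axis) for 7 probes of Trav14, Trac and Trbv12-2 (coloured circles) and the 4 Trbc1 and Trbc2 probes (grey squares) on the 8 arrays (horizontal axis); each point is 1 array and lines join the arrays of a group. The Trav14 probes lie at -2.20 to -1.78 in replicate 7 while the beta constant probes lie at -0.45 to -0.20.

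Trac moved with the Trav14 probes. This gene encodes the constant region shared by all alpha chains, whichever variable segment they use. It read 6.96 and 6.92 in replicates 1 and 2, 6.33 and 5.36 in replicates 3 and 4, 7.02 and 5.96 in replicates 5 and 6, and 5.27 and 5.23 in replicates 7 and 8. The order of high and low arrays was that of Trav14, with a range of 1.80 against 2.00 to 2.31 for the 5 Trav14 probes. In bulk RNA, fewer cells of a kind and less RNA per cell cannot be told apart.

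The remaining alpha variable probes were nearly level across arrays. Apart from those 5 Trav14 probes, 55 alpha variable probes were well above background on every array; they had ranges of 0.13 to 1.33 with a median of 0.39. Their median deviation from each probe's own mean lay between -0.12 in replicate 8 and 0.13 in replicate 4. Segments along the whole locus, from Trav1 to Trav21-dv12, were thus read in every sample. Among them Trav1 had the largest range, at -1.56, -1.62, -2.16, -1.74, -2.27, -1.44, -1.46 and -0.94 in replicates 1 to 8. Trav18, Trav9d-4, Trav7n-5 and 2 of the 3 Trav3-4 probes were not well above background on any array.

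On the beta side, Trbv12-2 was the variable segment that moved like Trav14. It read 2.43 and 2.60 in tumour-free hosts with control Ab, 1.90 and 1.53 in tumour-bearing hosts with control Ab, 2.65 and 1.80 in tumour-free hosts with anti-IL-6R Ab, and 1.29 and 1.16 in tumour-bearing hosts with anti-IL-6R Ab. The high, middle and low arrays were those of Trav14, and replicate 8 was 1.27 below replicate 1. Trbv12-1, the other member of the family on the array, read 0.02, -0.27, 0.17, 0.50, 0.06, 0.19, 0.42 and 0.11 and did not share this order. As a description over the 8 arrays, the Pearson correlation with Trav14-1 A_66_P106189 was 0.998 to 0.999 for the other 4 Trav14 probes that moved with it, 0.999 for Trac, 0.984 for Trbv12-2 and -0.76 for Trbv12-1. The arrays fall into 4 groups and the probes share the arrays, so these values carry no test.

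Other beta variable segments stayed close to level. The 25 probes other than Trbv12-2 had ranges of 0.21 to 1.53 with a median of 0.46, and their median deviation lay between -0.14 in replicate 2 and 0.22 in replicate 4. The widest of them, Trbv26, stood apart on 1 array: it read -1.21 in replicate 4 and -2.74 to -2.37 in the other 7. Trbv13-2, Trbv5, Trbv3 and Trbv1 had ranges of 0.41, 0.30, 0.35 and 0.32.

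The 4 probes of Trbc1 and Trbc2, the interchangeable constant regions of all beta chains, had ranges of 0.28 to 0.45. Trbc1 A_51_P210310 read 8.03, 7.83, 7.86, 8.02, 7.97, 7.89, 7.82 and 7.75 in replicates 1 to 8, and Trbc2 A_52_P102846 read 8.00, 7.85, 7.88, 7.88, 7.97, 7.88, 7.79 and 7.66. Neither showed the high, middle and low arrays of the alpha constant probe. Over the 8 arrays the 4 Trbc probes had correlations of 0.38 to 0.74 with Trav14-1 A_66_P106189, within their small ranges. A probe of a thymus cDNA described as the beta joining region, at chr6:41494031-41494090 between the Trbc1 and Trbc2 probes, read -0.31, -0.19, -0.35, -0.41, 0.03, -0.49, -0.80 and -0.67. It was highest in replicate 5 and lowest in replicate 7, with a range of 0.83 and a correlation of 0.87 with that Trav14-1 probe.

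**Figure D2:**
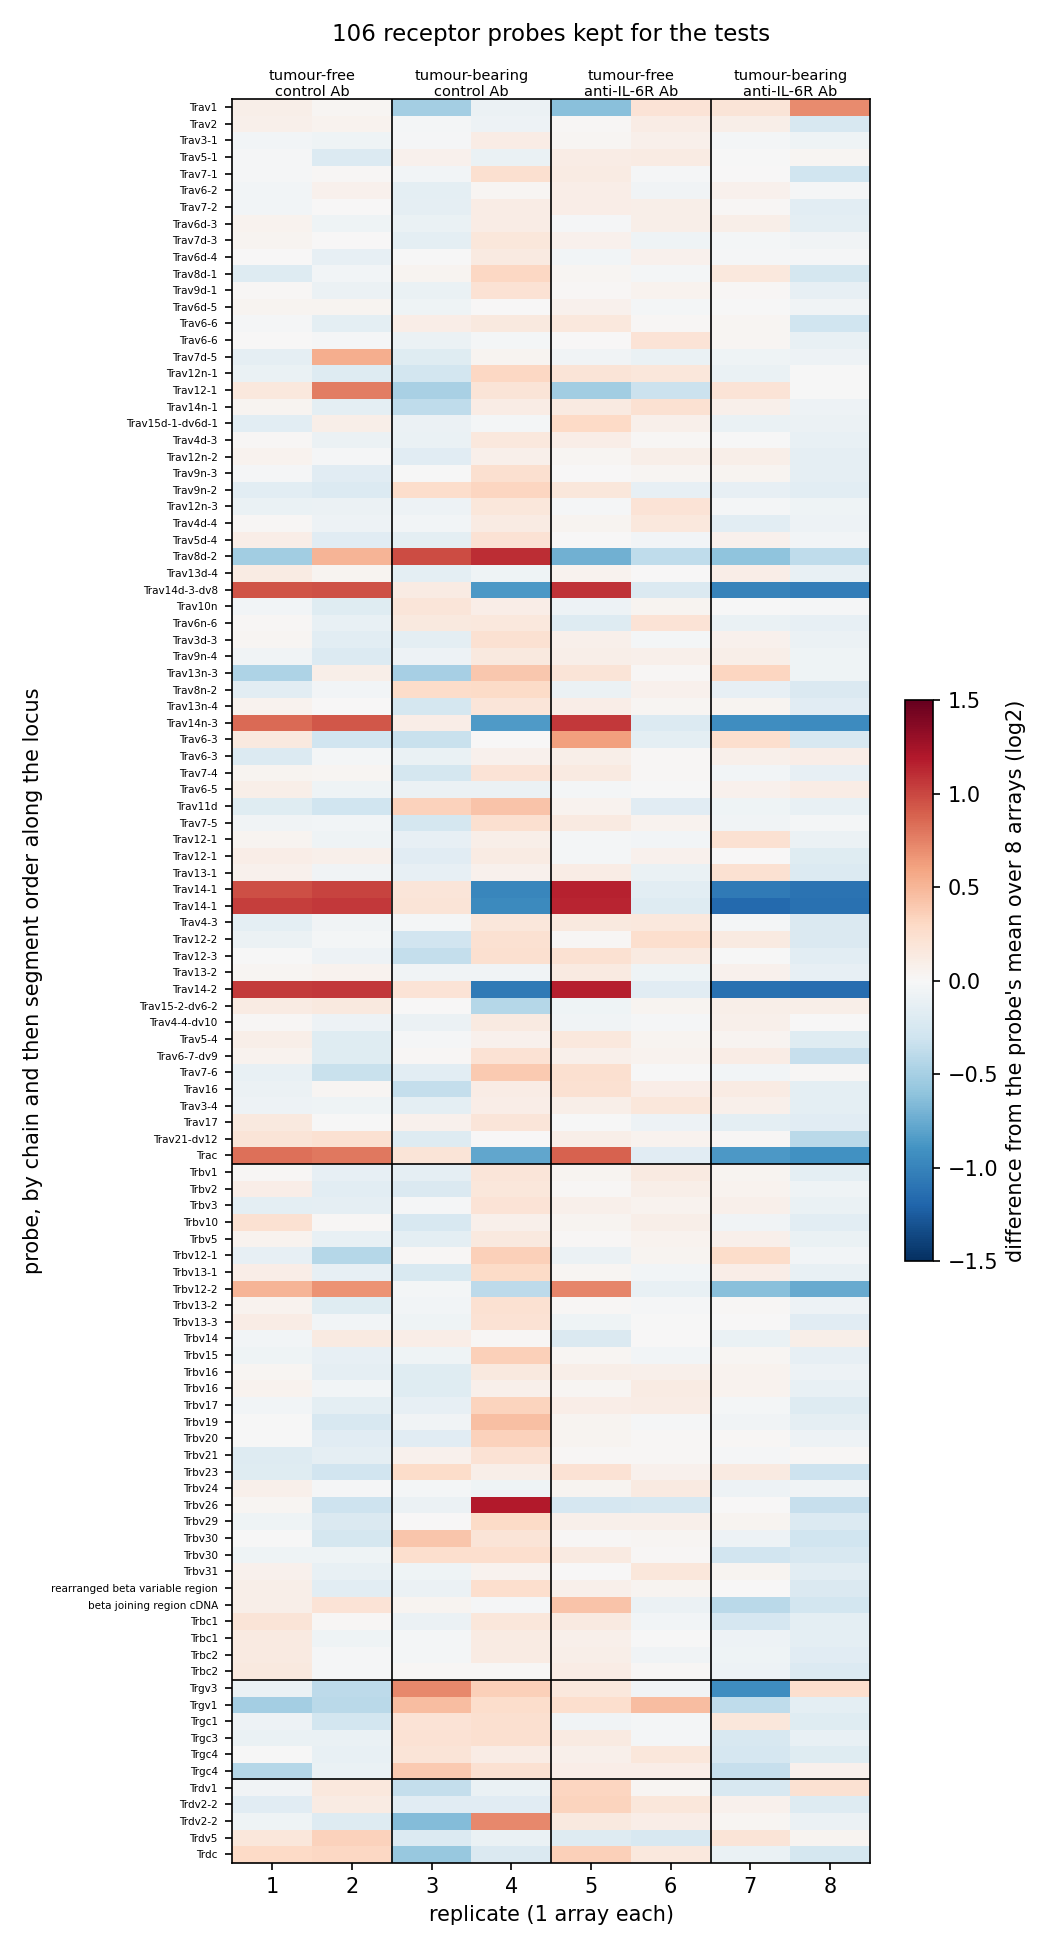
Difference of each of the 106 tested receptor probes from its own mean over 8 arrays (colour, log2), with probes in rows by chain and position along the locus and arrays in columns by group. The Trav14, Trac and Trbv12-2 rows change colour from replicates 1, 2 and 5 to replicates 4, 7 and 8, while most other rows stay pale.

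Set beside the whole array, the ranges of the 5 Trav14 probes, which were shown first for being the largest, lay in the upper tail. Among the 28103 probes well above background on all arrays the range over 8 arrays had a median of 0.44 and 95th and 99th percentiles of 1.53 and 2.51. The 100 receptor probes had a median of 0.44, and 7 of them exceeded the lower percentile and 0 the upper, near the shares that these percentiles set for all probes. Within groups, replicates 5 and 6 differed by 1.27 to 1.34 in the 5 Trav14 probes and by 1.06 in Trac, against a 99th percentile of 1.14 over all probes. Replicates 3 and 4 differed by 0.95 to 1.27 in the 5 Trav14 probes and by 0.97 in Trac, against a 99th percentile of 1.03. Between replicates 1 and 2 the 5 Trav14 probes differed by at most 0.09, and replicates 7 and 8 were as close, at 0.01 to 0.04. Trdv2-2 A_66_P132630, with -2.67 and -1.29 in replicates 3 and 4, had the largest difference within a group of any tested receptor probe, and its neighbour A_52_P649210 read -2.77 and -2.78 there.

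**Figure D3:**
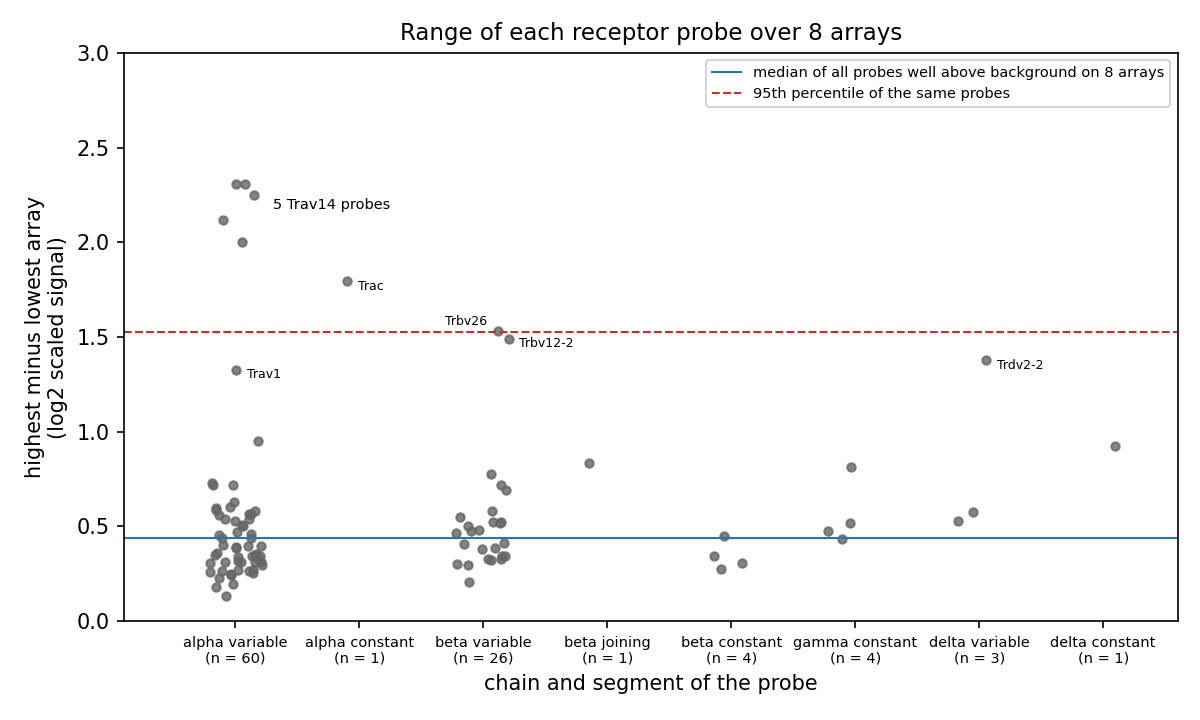
Highest minus lowest of the 8 arrays in log2 scaled signal (vertical axis) for the 100 receptor probes well above background on all arrays, by chain and segment (horizontal axis; each point is 1 probe). The 5 Trav14 probes and Trac lie between 1.80 and 2.31, above the 95th percentile of all probes at 1.53 (dashed), while the median receptor probe has a range of 0.44.

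Tumour-bearing and tumour-free hosts were compared first under control Ab, the comparison named in the study's design. Of the 106 tested receptor probes, 1 passed an adjusted p of 0.05 in limma and was higher in tumour-bearing hosts; 5.25% of all 32041 tested probes were called, 3.36% as higher and 1.89% as lower. The median difference over the receptor probes was 0.04 against 0.01 over all probes, with 64 above 0 and 42 below. The called probe was Trav11d, a copy of the Trav11 segment that forms the invariant alpha chain of natural killer T (NKT) cells. It read -1.24 and -1.37 in tumour-free hosts and -0.71 and -0.64 in tumour-bearing hosts with control Ab, and -1.01, -1.23, -1.12 and -1.18 in replicates 5 to 8. The tumour-bearing control arrays were above all others, and Trav11d rose by 0.63 ± 0.12 (SE, n = 2 arrays per group; limma, adjusted p = 0.028). The call was lost when replicate 2, 3 or 4 was left out (0.57 to 0.67, limma adjusted p = 0.090 to 0.15) and when arrays were scaled to the CD3 genes (0.45, limma adjusted p = 0.084).

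Values of NKT cell genes stand beside that change, and their part in it was not tested. Of the 4 genes listed for NKT and related cells, all were measured and 1 passed. This was Klrb1c, the NK1.1 receptor gene, which is also on the list of natural killer cell genes. It was higher in tumour-bearing hosts with control Ab by 0.87 ± 0.18 (limma, adjusted p = 0.035). Zbtb16, the lineage factor of NKT cells, read -1.35, -1.46, -0.71 and -1.12 in replicates 1 to 4 and differed by 0.49 ± 0.16 (limma, adjusted p = 0.11). The mean level of the list was -0.24 and -0.49 in replicates 1 and 2, 0.33 and 0.15 in 3 and 4, -0.03 and -0.35 in 5 and 6, and -0.15 and -0.15 in 7 and 8.

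Among the tested receptor probes, 5 Trav14 probes showed the largest differences of the comparison without passing the test. Trav14-1 A_66_P106189 stood at -1.43 ± 0.44 (tumour-bearing minus tumour-free under control Ab, n = 2; limma, adjusted p = 0.10), a 2.69-fold lower mean, and the 4 probes that moved with it stood between -1.48 and -1.27 with adjusted p of 0.10 by limma. Trac stood at -1.10 ± 0.36 (limma, adjusted p = 0.11) and Trbv12-2 at -0.80 ± 0.24 (limma, adjusted p = 0.097). In all of these the tumour-bearing arrays lay below the tumour-free arrays, and replicate 4 lay below replicate 3. Without replicate 4 the Trav14-1 difference was -0.85 and without replicate 3 it was -2.01 (limma, adjusted p = 0.34 and 0.078). Fits that leave out 1 of replicates 1 to 4 keep a lone array in a group of this comparison, which is assumed to vary like the other groups.

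The calls depended on which arrays entered the fit. With the 4 control Ab arrays fitted alone, 7 receptor probes passed, 1 higher and 6 lower, where 5.86% of all probes were called, 3.12% higher and 2.75% lower. The 6 were the 5 Trav14 probes and Trbv12-2 (limma, adjusted p = 0.018 to 0.044), and Trac missed the threshold (limma, adjusted p = 0.053). Leaving out replicate 5 from the fit of all groups also gave 7 calls, 1 higher and 6 lower, where 4.72% of all probes were called (3.03% higher, 1.69% lower), as did leaving out replicate 6 (4.8%, 3.07% higher and 1.73% lower). Leaving out replicate 1 gave 2 calls, 1 in each direction (5.58% of all probes, 2.32% higher and 3.26% lower). Leaving out replicate 2 gave 0 (1.33% of all probes, 0.896% higher and 0.437% lower), and so did leaving out replicate 4 (3.11%, 2.45% higher and 0.659% lower). Leaving out replicate 3 gave 1 call, where 1.92% of all probes were called (1.1% higher, 0.821% lower), but of another probe: Trbv26, at 1.33 (limma, adjusted p = 0.046), which then rests on replicate 4 alone for tumour-bearing hosts.

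The processing moved the count as well. Without a filter on dim probes 0 receptor probes passed (1.19% of all probes, 0.875% higher and 0.316% lower). Without the intensity trend Trav11d and Trgv1 passed, both higher (2.26% of all probes, 1.6% higher and 0.659% lower). With arrays scaled to Cd3d, Cd3e and Cd3g 0 passed (1.94% of all probes, 0.921% higher and 1.02% lower), and Trav14-1 A_66_P106189 stood at -1.61 (limma, adjusted p = 0.085).

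Under anti-IL-6R Ab, Trav14 means were again lower in tumour-bearing than in tumour-free hosts, without passing the test, and replicate 6 lay between replicate 5 and the tumour-bearing arrays. No receptor probe passed in limma (0 of 106; 0.209% of all probes were called, 0.181% higher and 0.0281% lower), and 14 (13.2%) had an unadjusted p below 0.05 against 7.43% of all probes. Trav14-1 A_66_P106189 stood at -1.62 ± 0.44 and Trac at -1.24 ± 0.36 (n = 2; limma, adjusted p = 0.49 and 0.54), and the Trbv12-2 mean was 2.01-fold lower (limma, adjusted p = 0.34). Leaving out replicate 6 gave 5 calls, all lower, where 0.696% of all probes were called (0.437% higher, 0.259% lower), and moved Trav14-1 to -2.28 (limma, adjusted p = 0.040). Leaving out replicate 5 moved it to -0.95 (limma, adjusted p = 0.99). Each of these fits leaves 1 array in the tumour-free group, which is assumed to vary like the other groups.

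Anti-IL-6R Ab was compared with control Ab in tumour-bearing hosts, the other comparison of the design. Replicates 3 and 4 enter both comparisons with opposite sign, so a high value there raises 1 difference and lowers the other. No receptor probe passed in limma (0 of 106; 4.27% of all probes were called, 1.51% higher and 2.76% lower), and 11 (10.4%) had an unadjusted p below 0.05 against 27.0% of all probes. The median difference was -0.08 against -0.04 over all probes, with 80 of the 106 below 0. The smallest adjusted p belonged to Trgc3 at -0.41 ± 0.10 (n = 2; limma, adjusted p = 0.056), followed by Trav11d at -0.48 ± 0.12, Trbv30 A_55_P1958754 at -0.52 ± 0.13 and Trav8n-2 at -0.45 ± 0.12 (limma, adjusted p = 0.060, 0.061 and 0.065). The Trav14-1 probe A_66_P106189 stood at -0.76 ± 0.44 and Trac at -0.59 ± 0.36 (limma, adjusted p = 0.30 and 0.32). With quantile normalization 3 receptor probes passed as lower, where 4.48% of all probes were called (1.55% higher, 2.92% lower). These were Trbv30 A_55_P1958754, Trav8n-2 and Trav8d-2. With normexp correction and quantile normalization 4 passed as lower, the same probes and Trgc3, where 5.45% were called (1.79% higher, 3.66% lower). Trav8d-2 entered the tests only through tumour-bearing hosts with control Ab, where it is high, so that filter favoured its passing as lower.

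In tumour-free hosts, anti-IL-6R Ab against control Ab gave no call among the receptor probes in limma (0 of 106; 0.0312% of all probes were called, 0.025% higher and 0.00624% lower), and 3 (2.83%) had an unadjusted p below 0.05 against 8.00% of all probes. The 3 were Trdv5 A_66_P107788 at -0.47 ± 0.13, Trgv1 at 0.82 ± 0.23 and Trav12-1 A_55_P2047723 at -0.89 ± 0.34 (limma, adjusted p = 0.49, 0.51 and 0.61). Trgv1 was well above background on only 5 arrays and that Trav12-1 probe on 4. Trav14-1 A_66_P106189 stood at -0.57 ± 0.44 and Trac at -0.45 ± 0.36 (limma, adjusted p = 0.73 and 0.74). In both Trav14-1 and Trac the groups overlapped, with replicate 5 above the control arrays and replicate 6 below them. The test of whether the antibody difference itself differed between hosts called no receptor probe in limma (0 of 106; 0.025% of all probes, 0.00624% higher and 0.0187% lower), with 14 (13.2%) at an unadjusted p below 0.05 against 23.6% of all probes. For Trav14-1 A_66_P106189 that term was -0.19 ± 0.62.

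**Figure D4:**
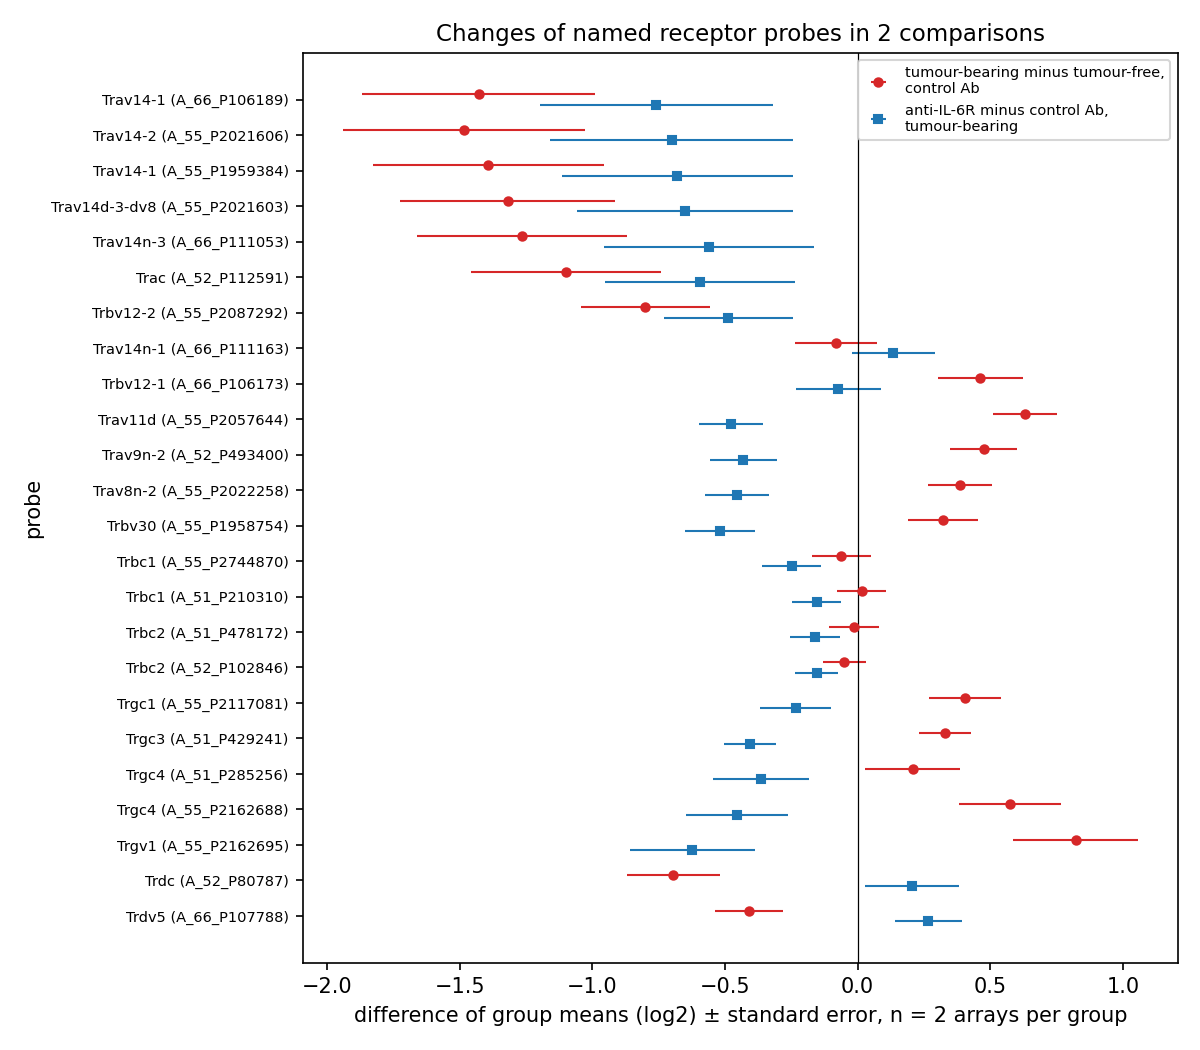
Difference of group means in log2 scaled signal (horizontal axis, points) with its standard error (bars, n = 2 arrays per group) for 24 receptor probes (vertical axis), for tumour-bearing minus tumour-free under control Ab (circles) and anti-IL-6R minus control Ab in tumour-bearing hosts (squares). Trav14-1 A_66_P106189 stands at -1.43 and -0.76, Trav11d at 0.63 and -0.48, and the Trbc probes lie near 0 in the first comparison. Both comparisons use the tumour-bearing control Ab arrays, with opposite sign.

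The group means of the 4 gamma constant probes were highest in tumour-bearing hosts with control Ab, by amounts that did not pass the test. Trgc3, a gamma constant region, read 0.06 and 0.06 in tumour-free hosts with control Ab, 0.38 and 0.40 in tumour-bearing hosts with control Ab, 0.29 and 0.13 in tumour-free hosts with anti-IL-6R Ab, and -0.08 and 0.05 in tumour-bearing hosts with anti-IL-6R Ab. The tumour-bearing minus tumour-free difference under control Ab was 0.33 ± 0.10 for Trgc3, 0.40 ± 0.13 for Trgc1, and 0.21 ± 0.18 and 0.57 ± 0.19 for the Trgc4 probes (limma, adjusted p = 0.093 to 0.55). Scaled to the CD3 genes, the Trgc3 difference was 0.15.

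Gamma variable segments gave little signal. Trgv4, Trgv5, Trgv6 and Trgv7 were not well above background on any array. Trgv1 was well above background on 5 arrays and read -4.05, -3.95, -3.08, -3.28, -3.29, -3.07, -3.92 and -3.68 in replicates 1 to 8. Against the tumour-free control arrays, where it was not well above background, the tumour-bearing control arrays were at least 1.77-fold higher (limma, adjusted p = 0.083). The tumour-free arrays with anti-IL-6R Ab were also at least 1.77-fold above those tumour-free control arrays (limma, adjusted p = 0.51). The Trgv1 and Trgv3 probes overlap by 53 bases with 4 differences, so their signals cannot be told apart with certainty. Trgv3 read -2.84 and -3.21 in tumour-bearing hosts with control Ab and -4.50 to -3.32 elsewhere. It was well above background on 6 arrays, and its lowest value, in replicate 7, is only an upper limit.

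Trdc and Trdv5 of the delta chain lay lower in tumour-bearing than in tumour-free hosts under control Ab, without passing the test. Trdc, the delta constant region, whose probe spans 701 bases and reads across a splice junction, read -2.02 and -2.01 in replicates 1 and 2, -2.89 and -2.54 in replicates 3 and 4, -1.96 and -2.16 in replicates 5 and 6, and -2.42 and -2.59 in replicates 7 and 8. Tumour-bearing arrays lay below tumour-free arrays under both antibodies, with differences of -0.69 ± 0.18 under control Ab and -0.44 ± 0.18 under anti-IL-6R Ab (limma, adjusted p = 0.062 and 0.59). Trdv5 A_66_P107788 is a variable segment that lies inverted downstream of Trdc. It read -1.28 and -1.11 in tumour-free hosts with control Ab and -1.69 to -1.26 on the other arrays. Its difference for tumour-bearing against tumour-free hosts was -0.41 ± 0.13 under control Ab (limma, adjusted p = 0.10). Under anti-IL-6R Ab the direction was opposite, at 0.33 ± 0.13 (limma, adjusted p = 0.59). The Trdv2-2 probes pointed in different directions for the host difference under control Ab, at -0.14 and 0.17. Under the same antibody the Trdv1 mean was -3.37 in hosts without a tumour and -3.66 in those with a tumour. Trdv4 and a further Trdv5 probe were not well above background on any array.

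Where several probes carried 1 segment name they mostly gave similar differences. The widest disagreement was in Trav12-1, whose 3 probes stood between 0.00 and 1.14 for the interaction of host and antibody. For tumour-bearing against tumour-free hosts under control Ab they stood between -0.62 and 0.00. Of these, A_55_P2047723 was well above background on 4 arrays and lies apart from the others, at chr14:53464983-53465042 against chr14:54158162-54158221 and chr14:54158222-54158281. Trav8d-2 was well above background only in replicates 3 and 4 and entered the tests through that group alone, where it is high. Tumour-bearing control arrays were at least 1.70-fold above tumour-free control arrays and at least 1.54-fold above tumour-bearing arrays with anti-IL-6R Ab (limma, adjusted p = 0.18 and 0.071). In all, 38 of the 121 probes overlapped another receptor probe by 25 bases or more at 80% identity or higher, so related segments are not independent readings.

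Genes of the receptor complex and of other cells were read on the same arrays. Of 16 genes of the receptor complex and its signalling, 1 passed for tumour-bearing against tumour-free hosts under control Ab, Cd5, an inhibitory coreceptor, at 0.39 ± 0.08 (limma, adjusted p = 0.040), and their mean level was 5.67 to 5.93 over all arrays. Cd8b1, the CD8 beta chain, read 2.95, 2.93, 2.97, 2.42, 2.97, 2.78, 2.64 and 2.39, Cd8a read -2.55 to -1.05, and neither passed. Rag1, Rag2 and Ptcra, the genes of receptor rearrangement and of the pre-receptor alpha chain, did not enter the tests, and Dntt read 1.03 to 1.61 with no call. Of 7 genes listed for gamma-delta T cells, 6 were measured, and Il23r did not enter the tests. Under control Ab, Maf, which is also raised in helper cells, was higher in tumour-bearing hosts by 1.13 ± 0.09 (limma, adjusted p = 0.0013). 5830411N06Rik was lower, at -0.87 ± 0.20 (limma, adjusted p = 0.049), and the median difference of the 6 genes was -0.13. For anti-IL-6R Ab against control Ab in tumour-bearing hosts, 2 of the 6 passed, both as lower. These were Cd163l1 at -1.41 ± 0.25 and Maf at -0.72 ± 0.09 (limma, adjusted p = 0.030 and 0.026). There the median difference of the 6 genes was -0.52. The part of any of these in the receptor values was not tested.

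Genes of other blood cells differed between the same groups. For tumour-bearing against tumour-free hosts under control Ab, limma called 7 of 8 erythroid, 5 of 8 neutrophil and 4 of 6 plasma cell genes as higher and 3 of 8 B cell genes as lower. Of 7 natural killer cell genes it called 1 higher, the Klrb1c probe already given with the NKT genes, and 2 lower, Klra8 and Gzma. Of the 6 macrophage and 4 measured dendritic cell genes it called none. For anti-IL-6R Ab against control Ab in tumour-bearing hosts, it called 5 erythroid, 5 neutrophil and 1 plasma cell gene as lower. In that comparison it called 1 B cell, 2 natural killer cell and 1 macrophage gene as higher. The mean level of the erythroid list was -1.34 and -0.56 in replicates 1 and 2, 1.93 and 1.00 in replicates 3 and 4, and -0.30 to 0.24 in replicates 5 to 8; that of the neutrophil list was 2.37 and 2.27 in replicates 3 and 4 and -0.48 to 0.34 on the other arrays. Their part in the receptor values was not tested.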

How the data were processed

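CD4+ T cell RNA of 8 samples was read on 8 one-colour arrays, 2 per group. The deposited scanner files hold intensity values; the submitters' processing notes name Agilent Feature Extraction 10.10.1.1. Probe positions are in mm9, per the file headers. The deposited value table holds log2 values close to the scanner signal on the log2 scale minus each array's 75th percentile. Here outlier spots were dropped, spots of a probe averaged, the log2 processed signal was scaled to that percentile, and 18 probes without a usable spot were left out. Tests took the 32041 probes that the scanner software called well above background in both replicates of any group. All 8 arrays were fitted as 4 group means with limma 3.58.1 in R 4.3.3 (4 residual and 4.29 prior degrees of freedom, intensity trend), two-sided, with Benjamini-Hochberg adjustment over all tested probes and a threshold of 0.05. The fit was tested on simulated data. Python 3.11.15, pandas 2.3.3, numpy 2.4.6 and matplotlib 3.10.9 made the tables and plots. "At least N-fold" sets the brighter group's mean against, per array of the dimmer group, the higher of the probe's own value and the lowest value called well above background.

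The members, gene lists, comparisons and rules were chosen with earlier results of these data known. Named probes were all constant-region, Trav14 and Trbv12 probes; per comparison, up to 10 per direction past the threshold with groups that do not overlap, or up to 5 with the smallest unadjusted p where fewer than 5 passed; the 5 largest differences within a group; and the segment name whose probes disagreed most. Others were named after their values were seen. For a listed gene the tested probe of highest mean was read. Only 2 arrays per group limit the precision, and since the labels do not say which arrays share an experiment, p-values here reflect only how these samples vary, which may be technical. Promoter and protein sequences of the segments were not used here.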

Additional observations from a re-analysis of the deposited data

How the results depend on the processing

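The count of receptor probes called was recomputed under 18 alternatives. For tumour-bearing against tumour-free hosts under control Ab the count of 1 became 0 without a filter on dim probes, 2 without the intensity trend, 0 when arrays were scaled to Cd3d, Cd3e and Cd3g, and 7 with the 4 arrays of the comparison alone; leaving out each replicate gave 0 to 7 (2 without replicate 1, 0 without 2 or 4, 7 without 5 or 6, and 1 without 3, where Trbv26 was called and Trav11d was not). For anti-IL-6R Ab against control Ab in tumour-bearing hosts the count of 0 became 3 with quantile normalization and 4 with normexp and quantile normalization. Both counts include Trav8d-2, which entered the tests only through tumour-bearing hosts with control Ab, where it is high. For tumour-bearing against tumour-free hosts under anti-IL-6R Ab, leaving out each replicate gave 0 to 5, the 5 without replicate 6. The counts of 0 for the antibody in tumour-free hosts and for the interaction of host and antibody stayed 0 under every alternative that was run. CD3 scaling moved the median of all probes from 0.01 to -0.16 for tumour-bearing against tumour-free hosts under control Ab, where it called 295 probes higher and 328 lower in place of 1076 and 606, and from -0.04 to 0.25 for the antibody in tumour-bearing hosts, where it called 4596 higher and 275 lower in place of 484 and 885. Of the 38 probe differences of at least 3 standard errors, none changed direction under any alternative that was run; 5 alternatives ended the call of Trav11d, and in 31 cases an alternative called a difference that had not passed. The cause of these shifts was not tested. A block for slide or scan was not run, because all arrays share 1 slide and 1 scan. No paired analysis was possible because the labels number the arrays from 1 to 8, so that groups share no replicate number.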

Other observations

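Outside the receptor probes, few features followed the Trav14 order of arrays. All 6356 tested probes with a range of at least 1 over the 8 arrays were ranked by their Pearson correlation with Trav14-1 A_66_P106189, a ranking chosen after the values were seen and given as a description with no test. At 0.95 or above stood 9 probes, that probe included, of which 2 were no receptor probes. The closer was Nppb, the gene of brain natriuretic peptide, a hormone best known from the heart, with a correlation of 0.997: it read 2.32, 2.34, 1.64, 0.64, 2.44, 1.32, 0.65 and 0.46 in replicates 1 to 8. Its range of 1.98 was near that of Trav14n-3. The other was BC018473, a long noncoding RNA gene on chromosome 11, with a correlation of 0.970: it read -0.39, -0.39, -2.98, -4.31, -0.02, -2.03, -4.45 and -4.89. It was well above background on 5 arrays and not in replicates 4, 7 and 8, so its values there are only upper limits and the correlation rests in part on them. A probe of St6galnac2, which lies 56.4 kb from BC018473 in GRCm38.p6 with 1 gene between them, read 0.06, -0.06, -0.36, -1.36, 0.01, -0.28, -0.62 and -0.82, with a correlation of 0.858. The other St6galnac2 probes had correlations of 0.078 and 0.588. The next was Bzrap1 at 0.947, whose other tested probe stood at -0.454. At the opposite end, 1 probe lay at -0.95 or below: Cables1, at -0.958, read -3.30, -3.35, -2.61, -2.13, -2.95, -2.58, -2.17 and -1.97, and Ctla4, an inhibitory receptor gene, stood at -0.931. No probe outside the receptor set shared a run of 20 bases with the Trav14, Trbv12, Trac or Trav11d probes shown.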
